A study of Homo sapiens with 3 samples.

Results

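The BEND3 peaks at CDKN1A were examined in chromatin of NTera2, a human embryonal carcinoma cell line often taken as a stand-in for pluripotent cells. Chromatin was immunoprecipitated with a rabbit antibody against BEND3 made in house (2 libraries, replicates 1 and 2) or with rabbit IgG (1 library, the control of both), from cells with no treatment named in the labels. Each BEND3 library had 1 deposited peak list in hg19 coordinates. Of 1334 peaks in both lists together, 3 overlapped the 20 kb of chromosome 6 from 36640000 to 36660000 that hold CDKN1A, a gene on the plus strand. Of these, 1 came from the 216 peaks of replicate 1 and 2 from the 1118 peaks of replicate 2. For comparison, 0.141% of all 20 kb windows of hg19 held a peak of replicate 1 and 0.719% held one of replicate 2. Those windows include gene-poor and unsequenced stretches, so the shares are a description of the lists and not a chance level for a gene. The lists hold no read numbers, and sequencing depth is therefore unknown. Whether separate cultures gave the BEND3 libraries is not stated in the labels, and an IgG peak list was not analysed here.

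CDKN1A encodes p21, an inhibitor of cyclin-dependent kinases that halts the cell cycle, for example after DNA damage. BEND3 is a nuclear protein with several BEN domains, which bind DNA or other proteins, and it has been described as a repressor of transcription. The title of the series names its role in transcription repression. p21 belongs to the CIP/KIP family of inhibitors with p27 (CDKN1B) and p57 (CDKN1C), which bind complexes of cyclins and their kinases. The INK4 family, encoded by CDKN2A, CDKN2B, CDKN2C and CDKN2D, acts on CDK4 and CDK6 alone.

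In a RefSeq table of the GRCh38.p14 assembly, used here for names, gene order and lengths, CDKN1A is 10870 bp long. Ordered by start coordinate, PANDAR and the pseudogene LAP3P2 come before it, and DINOL and RAB44 after it. Ends were not compared, so a gene after it in this order may overlap CDKN1A. PANDAR and DINOL are long non-coding RNAs known to be induced by DNA damage. The outermost annotated start of CDKN1A lies 2251 bp upstream of the start site for which the same source gives a promoter sequence. That sequence is shown because a BEND3 peak was found near the start of the gene. It is set beside that of CDKN1B, the other inhibitor gene with a peak nearby in both lists. The CDKN1B peak lay about 2.3 kb or more past the end of that gene, away from the promoter shown. Both are the 250 bases before the start site on the plus strand in GRCh38.p14, at chr6:36678464-36678713 for CDKN1A and chr12:12717118-12717367 for CDKN1B. These positions belong to another build than the peaks and cannot be set against them directly. The capitals mark CACGCG, a hexamer with a pair of CpG dinucleotides.
CDKN1A: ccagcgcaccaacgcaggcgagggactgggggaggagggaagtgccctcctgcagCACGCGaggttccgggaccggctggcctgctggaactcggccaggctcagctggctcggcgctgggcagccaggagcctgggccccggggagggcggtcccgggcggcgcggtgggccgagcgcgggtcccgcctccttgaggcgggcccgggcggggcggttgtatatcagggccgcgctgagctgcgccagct
CDKN1B: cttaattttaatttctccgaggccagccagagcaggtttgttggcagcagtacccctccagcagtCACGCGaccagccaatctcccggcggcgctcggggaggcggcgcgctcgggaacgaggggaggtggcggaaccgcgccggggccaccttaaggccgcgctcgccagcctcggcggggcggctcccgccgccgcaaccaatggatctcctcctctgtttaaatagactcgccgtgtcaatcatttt

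The CDKN1A promoter sequence was rich in CpG. It held 27 CpG dinucleotides, more than 82.3% of the 35116 promoter entries of the table (median 11), and its GC content was 76.4% (median 58.0%). CDKN1B also had 27 CpG, with a GC content of 64.4%. CACGCG, searched on both strands as CACGCG or CGCGTG, occurred at 1 place in each. It began 195 bases before the start site of CDKN1A and 185 bases before that of CDKN1B. Of all promoter entries 9.72% held it. The genes compared below had 20 entries for 13 of the 15 genes, and 3 of these 20 held it: those of CDKN1A and CDKN1B and 1 of the 2 of CDKN2A. GGGCGG, the GC box bound by Sp1-type factors, was searched as GGGCGG or CCGCCC. It occurred at 4 places in the CDKN1A sequence and 1 in that of CDKN1B, and 7.63% of all entries had 4 or more. The hexamer CACGCG was picked after the CDKN1A sequence had been read, so its presence there carries no weight. Whether it goes with BEND3 peaks was not tested. By the approximate positions given below, the CDKN1A peaks began about 0.1 kb or more after the start site. The CDKN1B peak lay past the end of its gene. The 2 sequences shown would thus lie outside the peaks, provided the start sites of both builds are the same. None of the promoter windows is known to lie under a peak, and the sequence under the peaks was not examined.

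The lists placed BEND3 signal just past the start site of CDKN1A and in the stretch behind it. Replicate 2 had a peak at 36646551 to 36646844 and another at 36647906 to 36648496, and replicate 1 had a single peak at 36648120 to 36648452. The downstream peak was thus present in both lists and the upstream one in replicate 2 alone. An hg19 annotation was not used here, so distances rest on the main start site as generally known for hg19, rounded to 0.1 kb. By that measure the upstream peak began about 0.1 kb after the start site. The downstream peak ran from about 1.4 to 2.0 kb after it in replicate 2 and from about 1.6 kb in replicate 1. These places correspond to the first exon and the beginning of the first intron, and to the first intron, as the gene is generally described. Exon borders were not taken from a file.

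**Figure D1:**
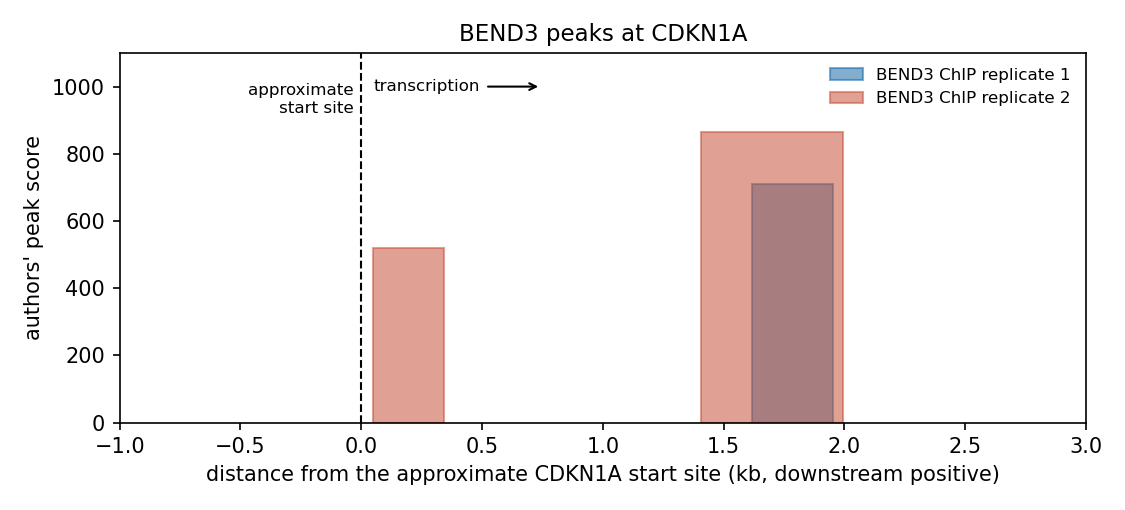
BEND3 peaks at CDKN1A by distance in kb from the approximate start site (dashed line), with the authors' peak score on the vertical axis; each bar spans 1 peak, blue for replicate 1 and red for replicate 2. The replicate 1 peak (score 710) lies inside the wider replicate 2 peak (score 866), and the peak nearest to the start site (score 521) is in replicate 2 alone.

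The shared peak in the first intron had the higher score of the 2 replicate 2 peaks at the locus. It was the only replicate 1 peak there. Its score was 710 in replicate 1 and 866 in replicate 2. The score is the authors' own value for a peak, used here to rank peaks within a list. In replicate 1 it ranked 32 of 216, in the top 14.8%, at 1.60 times the median score of that list (444.5). In replicate 2 it ranked 61 of 1118, in the top 5.46%, at 2.17 times the median of 400. Since the lists differ in length and depth is unknown, these ranks do not show a change between libraries. Among the 196 peaks of each list that overlapped the other list, it ranked 32 in replicate 1 and 48 in replicate 2.

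The peak at the start site was weaker than the intronic one. It had a score of 521 and ranked 281 of 1118 in replicate 2, in the top 25.1%, at 1.30 times the median. The score of the intronic peak in the same list was 1.66 times as high. The start-site peak was absent from replicate 1, as were most replicate 2 peaks. Of all 1118, 17.5% overlapped a replicate 1 peak. Of the 50 nearest to the start-site peak in score (504 to 537), 10 overlapped one, whereas 35 of the 50 nearest to the intronic peak (759 to 980) did. Scores of 521 or less were held by 139 of the 216 peaks of replicate 1. Scores of the lists may not share a scale, so this count does not say whether the upstream peak could have been called there. At unknown depth, the upstream peak was not detected in replicate 1, which does not show that the signal is absent there.

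In the order of scores, the CDKN1A peaks stood among the following ones. In replicate 1, the intronic peak followed a peak of chromosome 12 at 95341 to 95803 (score 718) and came before a peak of chromosome 19 at 13048903 to 13049230 (score 689). Both of these overlapped a replicate 2 peak. In replicate 2 it followed a peak of chromosome 6 at 163834420 to 163834865 (score 868) and came before a peak of chromosome 1 at 151170739 to 151171024 (score 856). The first of this pair was in both lists and the second in replicate 2 alone. The start-site peak shared its score of 521 with a peak of chromosome 16 at 230726 to 231612 and came before a peak of chromosome 3 at 14219903 to 14220102 (score 518). Both of those were in replicate 2 alone, as was the start-site peak.

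**Figure D2:**
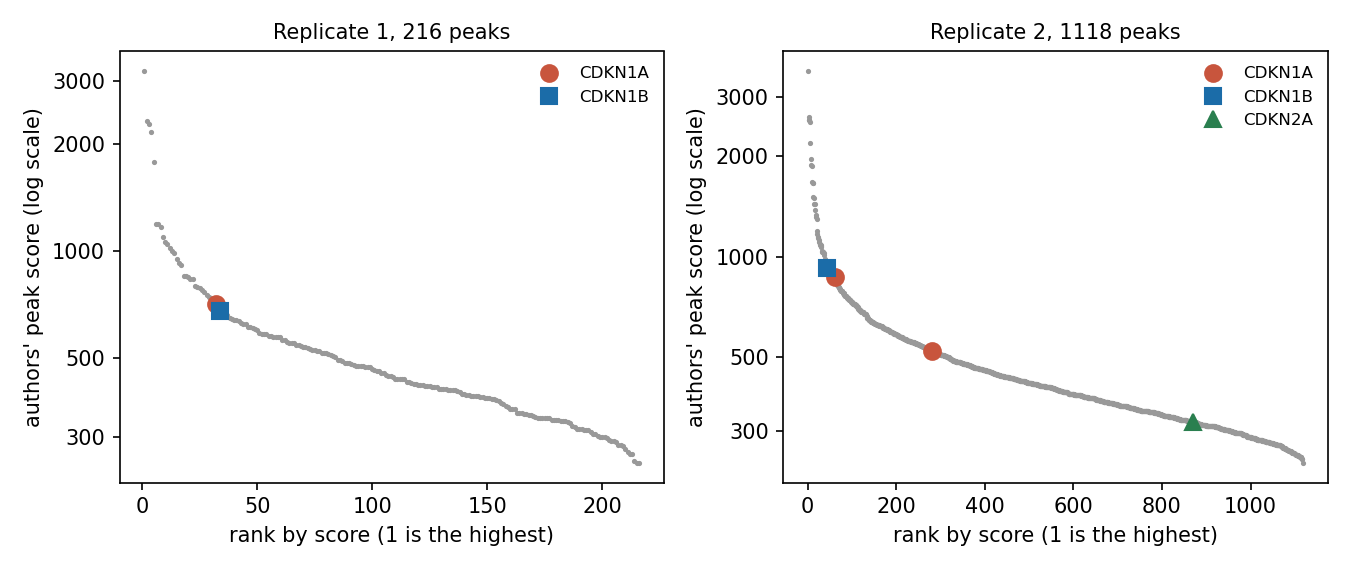
Score of every peak (log scale) against its rank in the list, replicate 1 on the left and replicate 2 on the right. Grey points are all peaks, and coloured symbols are the peaks in the CDKN1A, CDKN1B and CDKN2A windows. The intronic CDKN1A peak (rank 32 of 216 and 61 of 1118) lies close to the CDKN1B peak (rank 34 and 44), above the start-site peak of CDKN1A (rank 281) and the CDKN2A peak (rank 871).

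The replicate 1 peak lay wholly inside the intronic peak of replicate 2. The overlap was 333 bp, which is 100% of the replicate 1 peak and 56.3% of the replicate 2 peak. The replicate 2 peak extended 214 bp further toward the start site and 44 bp further away from it, so the midpoint of the replicate 1 peak was 85 bp downstream of that of replicate 2. Such containment was usual, as 134 of the 196 shared replicate 1 peaks (68.4%) lay wholly inside their replicate 2 counterpart. The replicate 2 peak was 1.77 times as wide at CDKN1A, and 61 of the 196 shared regions had a ratio at least as high (median 1.35).

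The CDKN1A peaks ranged from narrower than the median of their list to just above its upper quartile. The intronic peak spanned 333 bp in replicate 1, where the median width was 302 bp and the upper quartile 427 bp, and ranked 87 of 216 by width. In replicate 2 it spanned 591 bp, just above the upper quartile of 585.75 bp, and ranked 272 of 1118. The start-site peak spanned 294 bp, below the median of 346.5 bp, and ranked 693 of 1118. Its score rank was thus far higher than its width rank.

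**Figure D3:**
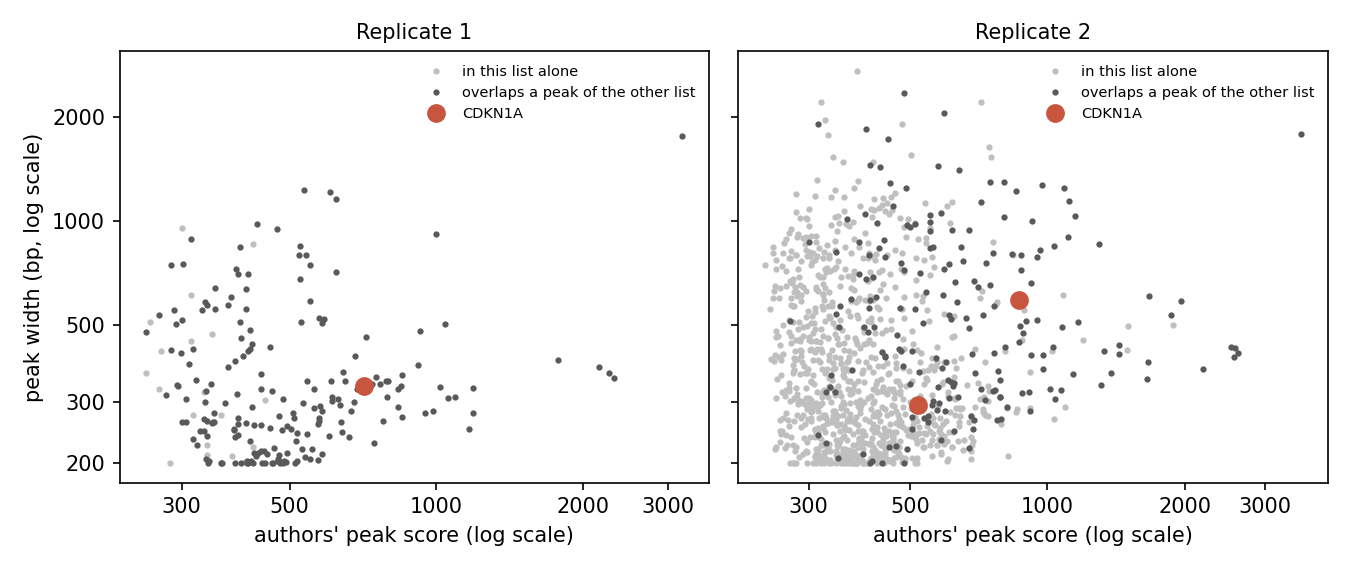
Width of every peak (bp) against its score, both on log scales, replicate 1 on the left and replicate 2 on the right; dark points overlap a peak of the other list, light points do not, and red points are the CDKN1A peaks. The CDKN1A peaks have widths of 333 bp in replicate 1 and of 294 and 591 bp in replicate 2, beside list medians of 302 and 346.5 bp, and scores above the medians of 444.5 and 400.

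CDKN1A was among the places where replicate 2 peaks stood closest together. The gap between its 2 peaks was 1061 bp, the sixth smallest of the 1094 gaps between neighbouring peaks of that list, and together they spanned 1946 bp. Of the 6 pairs with a gap of at most 1061 bp, 2 had a peak that overlapped replicate 1, and in each of these it was 1 of the 2 peaks. The other such pair was on chromosome 20, at 62371362 to 62372729, with scores of 523 and 312. There the first and stronger peak was the shared one.

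The nearest other replicate 2 peak on chromosome 6 was at 36807754 to 36807953, 159.3 kb past the intronic peak, with a score of 336. The nearest other replicate 1 peak lay 21.4 Mb away. In band 6p21.2, which spans 3.90 Mb, the CDKN1A peak was the 1 peak of replicate 1. Replicate 2 had 4 peaks in the band, of which the CDKN1A peaks had the highest scores, the others being 336 and 321. On the whole of chromosome 6 the intronic peak had the highest score of the 6 replicate 1 peaks, the next being 536. It had the second highest of the 36 replicate 2 peaks. The start-site peak ranked 12 of these 36. All 6 replicate 1 peaks of chromosome 6 overlapped a replicate 2 peak, and 6 of the 36 replicate 2 peaks overlapped one of replicate 1. Over the whole lists, 90.7% of replicate 1 peaks and 17.5% of replicate 2 peaks overlapped the other list.

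Among 15 genes compared, peaks were found at few. The 15 were the 7 inhibitors of cyclin-dependent kinases named above and 8 other genes of cell cycle control and the DNA damage response. For every gene but CDKN1A the window was the gene with 5 kb on each side, placed by hand from general knowledge of hg19 to the nearest kb. Replicate 1 had a peak in 2 of the 15 windows (CDKN1A and CDKN1B) and replicate 2 in 3 (these and CDKN2A), beside 0.141% and 0.719% of all 20 kb windows of the genome. The windows differ in length and surround genes, so this comparison has no test. CDKN1A was chosen with earlier results of these data known, so its own peaks carry no weight in these counts. The peaks in the CDKN1B and CDKN2A windows lay outside the genes. CDKN1A was the one gene with more than 1 peak, and the only one of the 3 with a peak as near as about 0.1 kb to its start site. Both traits rest on the start-site peak, found in replicate 2 alone, and are subject to the same choice of the gene.

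The window of CDKN1B, which encodes p27 and like CDKN1A belongs to the CIP/KIP family, held a peak of similar standing in both lists. It was at 12877763 to 12878170 on chromosome 12 in replicate 1 (408 bp, score 680, rank 34 of 216). In replicate 2 it was at 12877315 to 12878313 (999 bp, score 925, rank 44 of 1118). As at CDKN1A, the replicate 1 peak lay wholly inside that of replicate 2, which was 2.45 times as wide. Unlike the CDKN1A peaks, it lay outside the gene, beginning about 2.3 kb past its end in replicate 2. The next protein-coding gene is APOLD1, which begins 3.5 kb after the end of CDKN1B in GRCh38.p14. By these lengths the peak begins between the 2 genes, nearer to the start of APOLD1 than to the end of CDKN1B. It therefore cannot be assigned to CDKN1B. Of CDKN1C, the third member of the family, the nearest peak was 1207 kb away in replicate 1 and 875 kb in replicate 2.

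Of the 4 INK4 genes, only the CDKN2A window held a peak, and in replicate 2 alone. It was at 21965084 to 21965571 on chromosome 9, about 2.4 kb past the end of this gene, which lies on the minus strand. Its score of 320 was 0.8 times the list median and ranked 871 of 1118, far below both CDKN1A peaks. The same peak was the nearest to the window of CDKN2B, 32.4 kb away. The nearest peak to CDKN2D was 157 kb away in replicate 2 and 1729 kb in replicate 1, and that to CDKN2C was 1864 and 2759 kb away.

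The other 8 genes had 0 peaks in their windows in either list. SFN, which encodes the checkpoint protein 14-3-3 sigma, had its nearest peak 237 kb away in replicate 2 and 357 kb in replicate 1. For BTG2, an antiproliferative gene, the nearest peak was 492 kb away in both lists. GADD45A, a gene of the DNA damage response, was 538 kb from a replicate 2 peak. The nearest replicate 2 peaks to RBL1, RBL2 and RB1, the genes of the retinoblastoma family, were 939, 1431 and 1510 kb away. MDM2, which encodes a ubiquitin ligase of the DNA damage response, and CDKN3, a phosphatase of cyclin-dependent kinases, were 1534 and 1693 kb away. The error of these distances is not known, because the positions of the windows were not checked against an hg19 annotation.

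**Figure D4:**
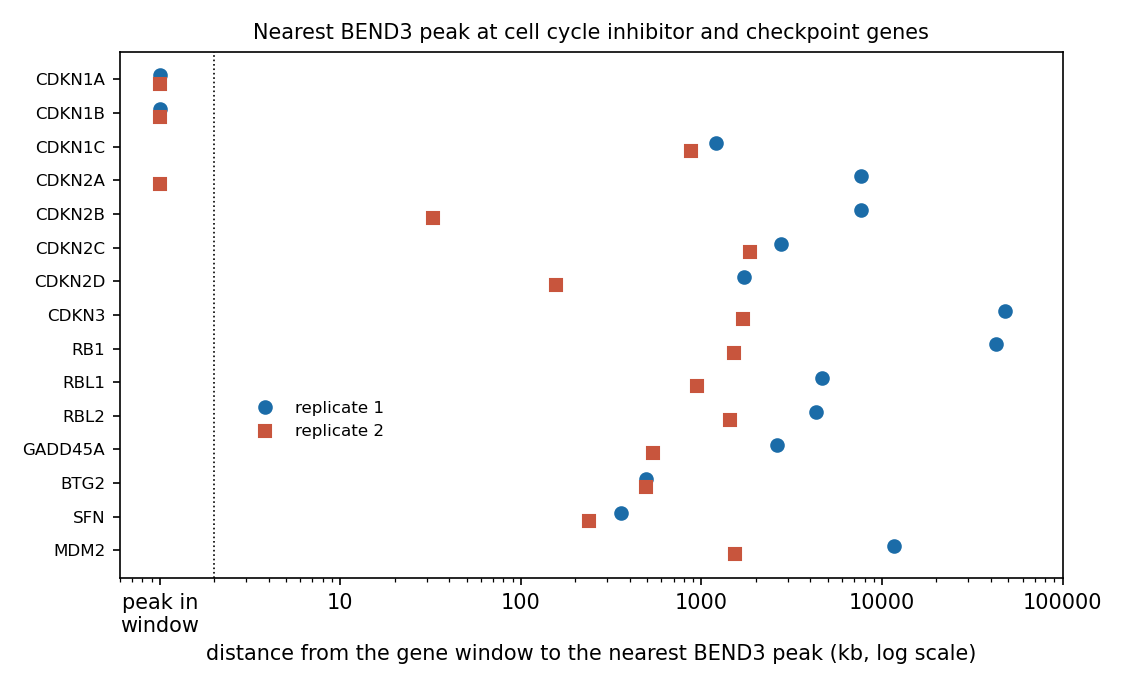
Distance in kb (log scale) from each gene's window to the nearest BEND3 peak, blue circles for replicate 1 and red squares for replicate 2; symbols left of the dotted line mark a peak inside the window. The CDKN1A and CDKN1B windows hold a peak in both lists and the CDKN2A window in replicate 2. The other 12 genes are 32.4 kb or more from a replicate 2 peak.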

How the data were processed

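Chromatin of NTera2 cells was profiled by ChIP-seq in 2 BEND3 libraries and 1 IgG library. Per the submitters' processing notes, the hg19 (GRCh37) build and the tools MACS2, Novoalign and Picard 2.9.4 were used; the notes as seen here give neither roles nor settings, and the peak threshold is not stated. Each BEND3 library had its own list of peaks, deposited by the authors and called against IgG per the list names. The lists have 9 columns and no header. In 100% of rows the deposited score equals 10 times column 9, cut to a whole number, and column 9 is above column 8. The columns were therefore not read as p-values or folds. Starts and ends, another deposited value, were made 1-based.

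Peaks that overlapped the CDKN1A window by at least 1 bp were taken, and ranks, widths, gaps and overlaps were computed in Python 3.11.15 with pandas 2.3.3, numpy 2.4.6 and scipy 1.17.1; figures used matplotlib 3.10.9. The functions were tested on simulated data. Chromosome lengths and bands of hg19 came from circlize 0.4.16. Promoter sequences, gene names, order and lengths came from RefSeq tables of GRCh38.p14, and all 15 gene symbols matched the gene table. The start site of CDKN1A and the windows of the other 14 genes were placed by hand. The gene lengths they imply differed from the table by at most 5.52 kb, which checks lengths and not positions. No promoter entry was used for CDKN1C and GADD45A. No test was run, since each library gives 1 list and the locus few peaks. Named were CDKN1A, the other inhibitors, other cell cycle control genes, the neighbours of CDKN1A and the peaks next to its own in score order. A planned comparison gene is not reported here. The locus and the gene lists were chosen with earlier results of these data known. The alternatives tried were wider windows, peaks at or above the median score, ranking by other columns or on fewer chromosomes, equal list lengths, other overlaps, peak midpoints and leaving out either library.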

Additional observations from a re-analysis of the deposited data

How the results depend on the processing

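Of 37 alternative values, 29 stayed within 1.5 times the reported count or within the 95% exact binomial interval of the reported rank share. That interval served only as a tolerance, since a rank in a list is not a count of independent trials. These 29 include the ranks by the column that the deposited score follows in every row. Those ranks could differ from the reported ones only among tied scores, so they do not check the result. Some other alternatives could not change the result either. The CDKN1A peaks, with scores of 521, 710 and 866, lie above the list medians of 400 and 444.5. Allowing gaps of up to 1 kb could not join peaks 1275 bp apart. Leaving out replicate 1 only restates the replicate 2 counts. Leaving out either BEND3 library gave 1 to 2 regions at CDKN1A in place of 2, the lower value without replicate 2, and 2 to 3 genes with a peak in either list in place of 3. The start-site peak ranked 321 of 1118 by column 8, in place of 281, and 12 of 36 on chromosome 6. With replicate 2 reduced to its 216 highest scores, the intronic peak stayed at rank 61, a larger share of a shorter list, and the start-site peak dropped out. Among the 196 replicate 2 peaks that overlap replicate 1, the intronic peak ranked 75 by width. Measured to midpoints, the distances from the start site were about 0.2 kb for the start-site peak and 1.7 and 1.8 kb for the intronic peak in replicates 2 and 1, larger by construction. Windows wider by 500 kb on each side added 1 peak in replicate 2 at CDKN1A, giving 3 in place of 2, at the limit of 1.5 times. With windows wider by 50 kb, 4 genes had a replicate 2 peak in place of 3, and replicate 1 stayed at 2. The CDKN2A peak was lost when only peaks at or above the median score were kept. The upstream start site of CDKN1A was not tried, since no table of the peaks' build was used. No paired analysis was possible because the IgG group has no peak list here and shares fewer than 2 replicate numbers with the BEND3 group. With depth unknown, a peak missing from a list may only have escaped detection.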
